A study of Mus musculus with 28 samples.

Results

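The 41 genes described here encode coagulation and complement factors of mouse plasma, with their inhibitors and 1 receptor. They were picked by gene symbol out of the 32544 genes listed in each of the 2 count tables, and all 41 were found. In each sex 40 of the 41 had enough counts to be tested. The exception was Cfd, complement factor D.

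Coagulation is a cascade of proteases, most of them made by hepatocytes, that ends with thrombin cutting fibrinogen into fibrin. Antithrombin, protein C and protein S restrain it, and plasmin, made from plasminogen, dissolves the clot. Complement is a parallel cascade: C1q or the mannose-binding lectins recognise a target, their proteases cleave C4 and C2, the C3 convertases then deposit C3, and C6 to C9 build a membrane pore with C5. Hepatocytes secrete most complement proteins, while C1q comes from macrophages, in liver mainly from Kupffer cells, its resident macrophages.

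Liver RNA came from C57BL/6 mice aged 13 weeks, with 1 library for each of 28 animals. Control mice with floxed alleles (CT) were set beside mice lacking c-Myc, a growth-promoting transcription factor, in endothelial cells (KO). Both genotypes had tamoxifen at 5 weeks of age, which switches on the Cre recombinase, and both were placed 2 weeks later on a control diet low in fat (CTD) or a diet rich in fat and cholesterol (HFC), which they ate for 5 weeks. These times add to less than the stated age of 13 weeks, and the gap is left unexplained here. The study asked what endothelial c-Myc does in diet-induced liver inflammation and fibrosis. The males formed 4 groups of 4 and the females 4 groups of 3. Nothing is said of the promoter that drives the Cre, of the number of KO lines or of the Cre status of CT mice, details not given in the sources used here. Each label carries an animal number of its own, so the replicates are separate animals. The numbers of CTD and HFC animals lie in separate ranges, from 298 to 320 and from 412 to 543, so diet and any difference between cohorts cannot be told apart. Males and females were in separate tables, so sex and table cannot be told apart either, and no test was made across them.

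Levels are given as CPM, read counts scaled to a common library size, after TMM normalisation, which also scales each library for its composition. Libraries held 22154774 to 22652285 counts in males and 18741939 to 19195502 in females. TMM factors lay between 0.842 and 0.999 for CTD libraries and reached 1.19 for HFC libraries, so the scaling itself moves with diet. The hepatocyte transcripts Alb (44623 to 145633 CPM) and Hnf4a (436 to 873 CPM) were high in every library. Myc ranged from 3.09 to 20.1 CPM in males and from 4.37 to 20.5 CPM in females, with KO over CT log2 fold changes of 0.45 and 0.81 in males (HFC and CTD; edgeR adjusted p = 0.96 and 0.842) and of 0.62 and 0.69 in females (adjusted p = 1 and 0.999). Other liver cells also express Myc, so whole-liver counts do not check a deletion limited to endothelium. In bulk tissue, fewer cells of a type and less RNA per cell cannot be told apart.

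Upstream sequence is shown for 4 members on which the results below turn: F11, which had the lowest adjusted p of the members in CT males, the adjacent pair C8b and C8a, of which C8b moved more, and C1qb, a macrophage product. RefSeq promoters (GRCm38.p6) matched 31 of the 41 members, and the 250 bases before the start of transcription were searched on both strands. The letters GTTAAT, part of the site bound by the hepatocyte factor HNF1, were found in 6 of 31 members (C1ra, C8a, C8b, F13b, Fga and Fgb; 19.4%) and in 4.24% of 10611 promoters of tested genes. The letters GAGGAAGT, a site of the myeloid factor PU.1, were found in 1 member, C1qc, and in 2.52% of all promoters. TTCNNNGAA, the STAT palindrome, was present in 6 members (C8a, F9, Fga, Fgb, Masp2 and Pros1; 19.4%) against 6.20% of all, TATAAA in 1 (Klkb1) against 7.19%, and CAAAGTCCA, an HNF4 core, in 0 against 0.452%. A match is a run of letters and not a shown binding site, and some of these matches overlap other motifs. The sequences run 5′ to 3′ on the strand of the gene and end at the base before the start; F11 lies at chr8:45262032-45262281 (minus strand), C8b at chr4:104766067-104766316 (plus strand), C8a at chr4:104876399-104876648 (minus strand) and C1qb at chr4:136886201-136886450 (minus strand). Capitals mark GTTAAT or its reverse complement in C8b and C8a, and neither F11 (for GTTAAT) nor C1qb (for GAGGAAGT) had a match to mark.
F11: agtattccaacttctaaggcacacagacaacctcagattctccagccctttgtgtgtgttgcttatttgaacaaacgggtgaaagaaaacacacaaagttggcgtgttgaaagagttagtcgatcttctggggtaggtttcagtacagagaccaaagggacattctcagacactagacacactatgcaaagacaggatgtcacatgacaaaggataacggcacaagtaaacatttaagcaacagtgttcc
C8b: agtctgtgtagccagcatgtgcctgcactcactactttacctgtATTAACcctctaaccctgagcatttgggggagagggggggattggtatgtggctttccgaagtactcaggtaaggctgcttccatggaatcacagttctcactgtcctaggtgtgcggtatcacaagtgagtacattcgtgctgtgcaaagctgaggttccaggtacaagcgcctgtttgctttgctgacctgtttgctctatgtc
C8a: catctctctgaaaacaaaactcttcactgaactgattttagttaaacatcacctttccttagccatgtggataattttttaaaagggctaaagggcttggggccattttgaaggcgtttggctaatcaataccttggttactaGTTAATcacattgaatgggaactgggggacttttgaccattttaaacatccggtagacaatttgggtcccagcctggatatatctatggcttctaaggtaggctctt
C1qb: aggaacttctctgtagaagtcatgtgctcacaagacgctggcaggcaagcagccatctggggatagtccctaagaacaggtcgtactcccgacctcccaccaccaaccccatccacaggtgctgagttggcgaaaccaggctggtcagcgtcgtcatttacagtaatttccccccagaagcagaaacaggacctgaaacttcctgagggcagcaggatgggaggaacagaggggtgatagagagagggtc

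Per kilobase of exon, the most abundant members in CT males on CTD were the fibrinogen chains and C3, the protein on which the complement pathways converge. Fga stood at 2103 ± 447 CPM per kb (SD, n = 4), Fgg at 1888 ± 364, C3 at 1413 ± 252 and Fgb at 1324 ± 300.1, and neighbours in that order overlapped within 1 SD. Plg, plasminogen, followed at 695 ± 61.0 CPM per kb and Kng1, kininogen, at 648 ± 54.7. At the low end were C1qc at 21.7 ± 5.00, Pros1, protein S, at 15.1 ± 2.14, Masp1, a lectin pathway protease, at 9.84 ± 0.941 and C5ar1, the receptor for the complement fragment C5a, at 0.398 ± 0.292 CPM per kb. Together the 41 genes took 3.99 ± 0.43% of the CTD counts and 4.33 ± 0.46% of the HFC counts of CT males (SD, n = 4). Cfd, a serine protease of the alternative pathway known mainly as an adipocyte product, had at most 11 counts in a library (0.548 CPM) and was at 0 in 18 of 28. Of the 6 adipocyte markers, Lep was at 0 in every library, and Adipoq, Adig, Retn and Plin1 had at most 1, 2, 4 and 11 counts. The last of the 6, Adrb3, had 54 to 256 counts (2.54 to 11.7 CPM) in every library.

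In CT males, F11, Masp1, Masp2, C8b, C8g, Plg and Serpinf2 were lower on HFC, and the 3 C1q chains and Mbl2 were higher. These 11 of 40 tested members (27.5%) passed the threshold, an adjusted p under 0.05 in edgeR's quasi-likelihood test, beside 20.0% of all tested genes. By direction, 4 members rose (10.6% of all genes did) and 7 fell (9.40% of all genes did). In KO males 16 members (40%) passed, beside 29.1% of all genes: 6 rose (15.5% of all genes) and 10 fell (13.6% of all genes). The genotypes had 9 called members in common, namely C1qa, C1qb, C1qc, C8b, C8g, F11, Masp1, Masp2 and Plg. The genotypes share no animals in these comparisons but were fitted together, with a shared estimate of the spread between animals. The share of all genes called in both genotypes was not computed. Mbl2 and Serpinf2 were called in CT males alone, and C2, C5ar1, F10, F2, Klkb1, Mbl1 and Pros1 in KO males alone. The test of the difference between the genotypes' diet responses called none of these.

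In females the threshold was reached by 0 of 40 members in CT mice (2.19% of all genes). An unadjusted p under 0.05 in edgeR was reached there by 5 of the 40 members and by 2842 of all 13999 tested genes. DESeq2 called 0 members and 905 genes in that comparison. The median SE of the members' log2 fold changes was 0.188 in CT and 0.189 in KO females, against 0.112 in both male genotypes. By direction, 0.936% of all genes rose and 1.26% fell there. In KO females 4 members fell, F7, Masp2, Serpinf2 and Plg (10% of 40, beside 8.59% of all genes and 4.65% of all genes for falls), and 0 rose (3.94% of all genes did). Over both sexes and genotypes 19 members were called at least once, and the share of all genes called at least once was not computed. The 21 tested members called in none were F5, F9, F12, F13b, Kng1, Fga, Fgb, Fgg, Proc, Serpinc1, Serpind1, Cpb2, C1ra, Serping1, C4b, C3, Cfb, Cfi, C6, C8a and C9.

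Most changes were under 0.5 in size, but their median size was no smaller than that of all genes. The log2 fold change lay within 0.5 of zero for 32 of 40 members in CT males, 33 in KO males, 32 in CT females and 25 in KO females. The share of all genes within that bound was not computed. The median absolute log2 fold change of the members was 0.296, 0.298, 0.228 and 0.341 in that order, beside 0.200, 0.221, 0.226 and 0.260 over all tested genes. With sign kept, the median over the members was -0.21, -0.20, -0.13 and -0.27 in that order, beside -0.01, -0.02, 0.00 and 0.02 over all tested genes. Scaling by library totals in place of TMM shifted the median of all genes to 0.22, 0.26, 0.30 and 0.32 and that of the members to 0.02, 0.07, 0.16 and 0.03. With that scaling, 9 members were called as higher and 4 as lower in CT males, 12 and 2 in KO males, 3 and 0 in CT females and 4 and 0 in KO females. Directions below are therefore relative to the bulk of the transcriptome. The falls of F11 and C8b in males and of Masp1 and Masp2 in CT males were called under both scalings, and no other fall was.

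**Figure D1:**
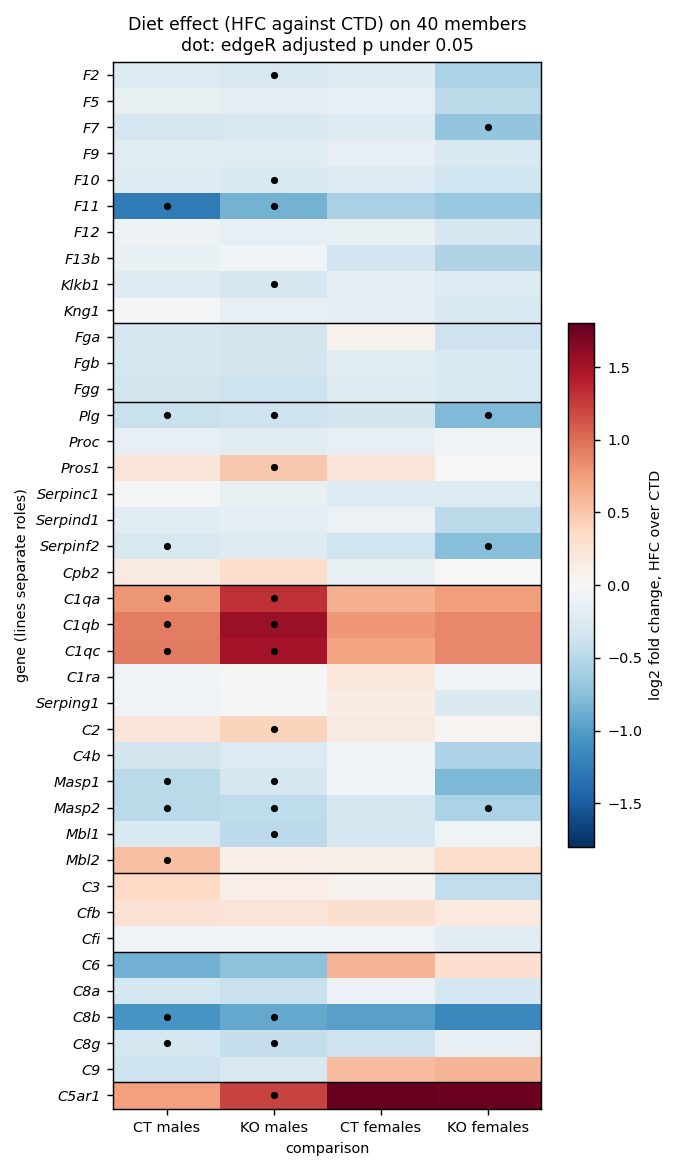
Log2 fold change of HFC over CTD for the 40 tested members (vertical axis, ordered by role) in CT males, KO males, CT females and KO females (horizontal axis), coloured from blue (lower on HFC) to red (higher on HFC) with dots where the adjusted p was under 0.05. The 3 C1q chains are red in all 4 columns with dots in the males only, and F11 (-1.27, -0.86, -0.59 and -0.69) and C8b (-1.07, -0.92, -0.97 and -1.16) are blue in all 4.

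Among the 10 initiation, contact and common pathway factors, F11 fell the furthest in males. F11 is factor XI, a protease that activates factor IX, and its gene lies at chr8:45241174-45262031, 4657 bases from Klkb1, the gene of prekallikrein. In males F11 stood at 94.9, 94.1, 79.0 and 74.4 CPM in CT mice on CTD, 31.2, 42.0, 35.1 and 33.4 CPM in CT mice on HFC, 81.4, 72.2, 73.3 and 71.3 CPM in KO mice on CTD and 40.4, 37.4, 39.4 and 47.5 CPM in KO mice on HFC. On HFC every male lay below every male on CTD, in both genotypes. The CT difference was log2 fold change -1.27, SE 0.10, adjusted p = 2.98e-06 (edgeR), a level 0.414 times that on CTD, and the KO difference was log2 fold change -0.86, SE 0.10, adjusted p = 1.25e-05 (edgeR), 0.552 times. The difference of Klkb1 was smaller, and its levels in males were 359, 371, 329 and 345 CPM in CT mice on CTD, 321, 324, 256 and 289 CPM in CT mice on HFC, 346, 305, 373 and 322 CPM in KO mice on CTD and 217, 296, 308 and 268 CPM in KO mice on HFC. The KO groups overlapped there, and the change was log2 fold change -0.31, SE 0.11, adjusted p = 0.0401 in KO males (edgeR) and -0.24 in CT males (adjusted p = 0.129). The F11 to Klkb1 ratio of CPM was 0.244 ± 0.0208 on CTD and 0.12 ± 0.0176 on HFC in CT males, and 0.222 ± 0.0186 and 0.154 ± 0.0319 in KO males (SD, n = 4).

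In females F11 stood at 34.2, 35.8 and 53.1 CPM in CT mice on CTD, 33.1, 24.6 and 24.1 CPM in CT mice on HFC, 33.2, 54.1 and 49.1 CPM in KO mice on CTD and 25.0, 34.8 and 24.8 CPM in KO mice on HFC. On HFC the CT females lay just below the lowest on CTD, and the KO groups overlapped. The difference was log2 fold change -0.59, SE 0.22, adjusted p = 0.174 in CT females and log2 fold change -0.69, SE 0.22, adjusted p = 0.0765 in KO females (edgeR), with 95% intervals of -1.07 to -0.10 and -1.17 to -0.20. The F11 to Klkb1 ratio had a lower mean on HFC in both female genotypes too, going from 0.185 ± 0.0434 to 0.14 ± 0.0347 in CT and from 0.202 ± 0.0394 to 0.152 ± 0.0165 in KO (SD, n = 3), and was not tested.

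F7, factor VII, which binds tissue factor and starts the extrinsic pathway, was called in KO females. Its levels in females were 136, 114 and 102 CPM in CT mice on CTD, 89.7, 105 and 104 CPM in CT mice on HFC, 119.5, 129.8 and 116 CPM in KO mice on CTD and 57.2, 92.8 and 72.5 CPM in KO mice on HFC. All KO females on HFC lay below all other KO females (log2 fold change -0.72, SE 0.17, adjusted p = 0.0202, edgeR), a call that ended without KO female 307, 309, 317, 412 or 419 (adjusted p up to 0.0758) and with library totals (-0.42, adjusted p = 0.0574) or only the groups compared (0.0806). In males the F7 log2 fold change was -0.30 (CT) and -0.29 (KO), with adjusted p of 0.0802 and 0.0762 in edgeR. F2, prothrombin, and F10, factor X, which cuts it, were called in KO males at -0.28 and -0.27 on the log2 scale (edgeR adjusted p = 0.0454 and 0.0296). The F2 call ended without any 1 of 11 males, all but 320, 415, 417, 418 and 539 (adjusted p up to 0.14), and the F10 call without KO male 303, 304, 414 or 540 (up to 0.100). The Klkb1 call ended without KO male 298, 304, 311, 414 or 540 (up to 0.135). All 3 ended in a fit of only the groups compared (adjusted p = 0.127 for F2, 0.0717 for F10 and 0.101 for Klkb1), and F2 also with RLE size factors (0.052) and no low-count filter (0.058). With library totals F2, F10 and Klkb1 stood at -0.01, 0.0020 and -0.04 in KO males. The other 5 factors, F5, F9, F12, F13b and Kng1, had log2 fold changes between -0.22 and -0.02 in males, with 0 calls. All 10 factors had a negative fold change in each of the 4 diet comparisons under TMM, with medians of -0.23 and -0.24 in CT and KO males and -0.20 and -0.41 in CT and KO females, whereas under library totals 5, 4, 2 and 7 of the 10 were negative in that order.

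The fibrinogen chains, encoded side by side on chromosome 3, were not called in any comparison. In males Fga was 5298, 5836, 8308 and 5874 CPM in CT mice on CTD, 5177, 6669, 4155 and 4568 CPM in CT mice on HFC, 5285, 7366, 5512 and 4653 CPM in KO mice on CTD and 3893, 5295, 4328 and 4688 CPM in KO mice on HFC. CT male 313 on CTD was the highest of all, and the diets overlapped in both genotypes. The diet difference of Fga, Fgb and Fgg was -0.30, -0.31 and -0.33 in CT males and -0.33, -0.33 and -0.37 in KO males (edgeR adjusted p between 0.128 and 0.254). In females the 3 changes lay between -0.23 and 0.06 in CT and between -0.37 and -0.27 in KO mice. The chains kept close to fixed proportions in males: over 16 males the Fga to Fgb ratio of CPM ranged from 1.22 to 1.38 and the Fgg to Fgb ratio from 0.747 to 0.867. Over 12 females the ranges were 0.688 to 0.983 and 0.683 to 0.787, so Fga to Fgb was less fixed there. In CT females Fga to Fgb was 0.688 to 0.827 on CTD and 0.867 to 0.934 on HFC, without overlap. The KO females overlapped, and the ratio was not tested. Fibrinogen is also an acute phase protein, and of the 15 other acute phase genes listed, 0 were called in CT males or CT females, 3 rose and 1 fell in KO males, and 2 rose and 1 fell in KO females. Over all genes 20.0% were called in CT males, 2.19% in CT females, 29.1% in KO males and 8.59% in KO females.

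Of the 7 inhibitors and fibrinolysis genes, Plg fell and Pros1 rose. Plg encodes plasminogen, the precursor of the fibrin-cutting protease plasmin. In males Plg was 2392, 2505, 2908 and 2508 CPM in CT mice on CTD, 1893, 2335, 1631 and 1926 CPM in CT mice on HFC, 2203, 2549, 2298 and 2367 CPM in KO mice on CTD and 1512, 2036, 2014 and 1716 CPM in KO mice on HFC. The HFC males lay below the CTD males of the same genotype (-0.41 in CT, adjusted p = 0.0272; -0.37 in KO, adjusted p = 0.0302, edgeR). Both calls depended on single animals: the CT call ended without CT male 305, 313, 416, 418 or 543 (adjusted p up to 0.0984) and the KO call without KO male 303, 304, 311, 414 or 540 (up to 0.0975). In KO females Plg was 2092, 2744 and 2219 CPM under CTD against 1044, 1731 and 1296 under HFC, without overlap (log2 fold change -0.79, SE 0.20, adjusted p = 0.026, edgeR). With library totals the 3 Plg changes were -0.18, -0.10 and -0.50, and none was called, nor was any in a fit of only the groups compared (adjusted p = 0.0556, 0.0606 and 0.103).

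Serpinf2, antiplasmin, the main inhibitor of plasmin, fell together with Plg in KO females. It was 661, 865 and 768 CPM under CTD against 401, 591 and 358 under HFC, and the groups did not overlap (log2 fold change -0.77, SE 0.19, adjusted p = 0.0244, edgeR). The calls of Plg and Serpinf2 in KO females both ended without KO female 309, 317, 412 or 419 (adjusted p up to 0.102 and 0.0965), and both ended with only the groups compared (0.103 and 0.113) or library totals. In CT males Serpinf2 overlapped between diets and sat at the threshold (-0.29, adjusted p = 0.049, edgeR), a call lost without any 1 of 12 males, all but 301, 298, 417 and 414 (up to 0.153), and with library totals (-0.07), RLE size factors, no low-count filter or only the groups compared (adjusted p = 0.56, 0.0514, 0.0642 and 0.102). Pros1, protein S, the cofactor of protein C, went the other way in KO males, from 50.4, 55.1, 54.8 and 55.7 CPM to 68.5, 76.6, 76.8 and 80.4 CPM. The diets did not overlap (log2 fold change 0.48, SE 0.09, adjusted p = 0.000785, edgeR), and the call remained under every alternative run. In CT males Pros1 overlapped (0.24, adjusted p = 0.0747). Proc, Serpinc1 (antithrombin), Serpind1 (heparin cofactor II) and Cpb2, a carboxypeptidase that protects fibrin, were not called in any comparison, with changes between -0.20 and 0.31 in males.

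**Figure D2:**
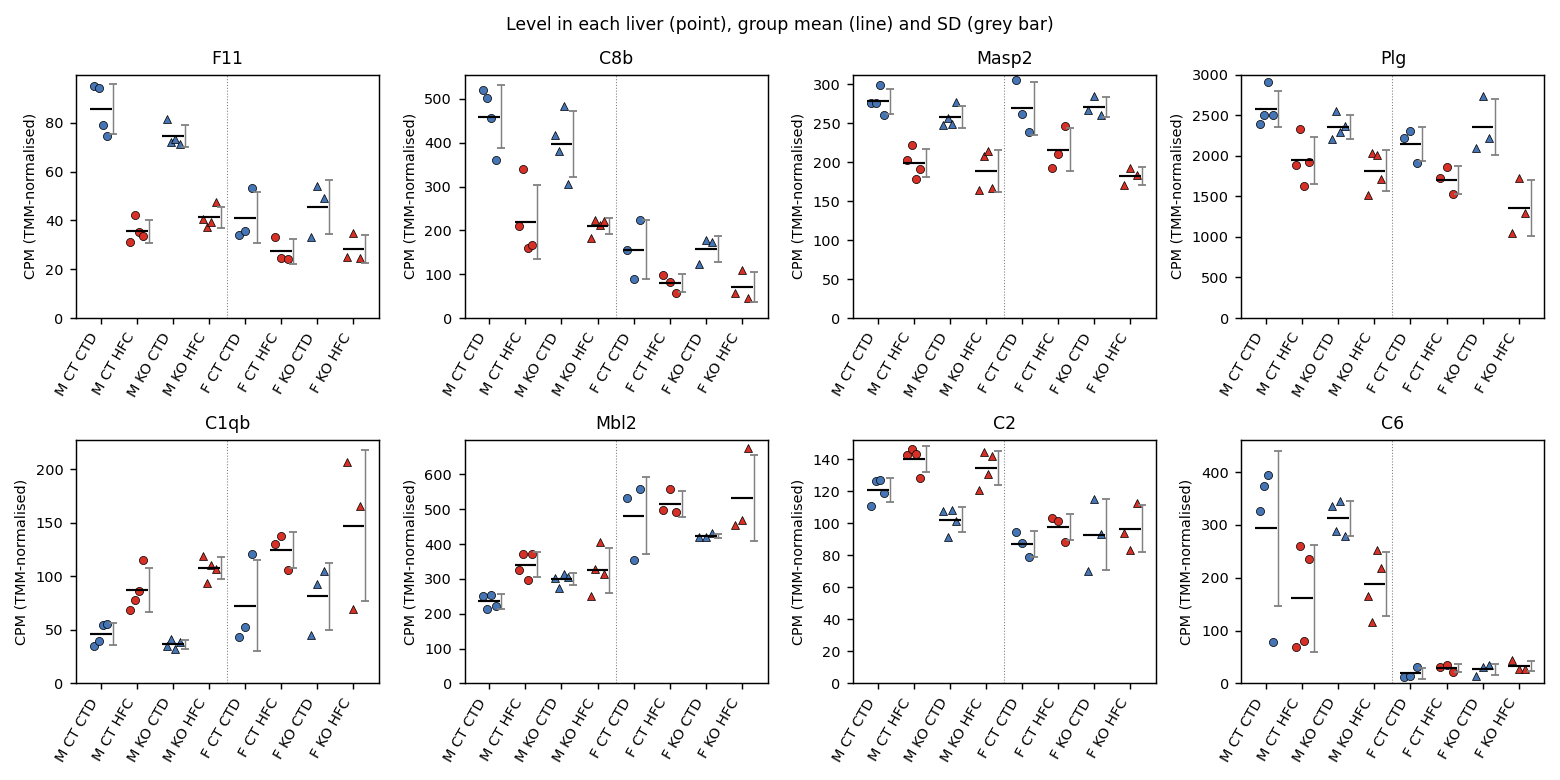
CPM of each animal for F11, C8b, Masp2, Plg, C1qb, Mbl2, C2 and C6 by sex and group (M male, F female; blue CTD, red HFC; circles CT, triangles KO; line, mean; grey bar, SD). F11, C8b and Masp2 lie lower on HFC in males of both genotypes without overlap, C1qb lies higher, and C6 ranges from 68.6 to 394 CPM in males but from 12.4 to 43.5 CPM in females.

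The chains of C1q, the molecule that starts the classical pathway, rose on HFC in males and were the only members called as higher in both genotypes. C1qa, C1qb and C1qc lie together at chr4:136895917-136898803, chr4:136880129-136886187 and chr4:136889804-136893065 on GRCm38. In males C1qb was 34.9, 39.3, 54.1 and 55.2 CPM in CT mice on CTD, 68.6, 78.2, 86.2 and 116 CPM in CT mice on HFC, 34.9, 41.4, 31.8 and 38.8 CPM in KO mice on CTD and 119, 93.8, 111 and 107 CPM in KO mice on HFC. Every HFC male lay above every CTD male. The log2 rises of C1qa, C1qb and C1qc were 0.80 (SE 0.15), 0.93 (SE 0.16) and 0.93 (SE 0.17) in CT males, with edgeR adjusted p of 0.00142, 0.0013 and 0.00173. In KO males they were 1.31 (SE 0.15), 1.55 (SE 0.17) and 1.50 (SE 0.17), with edgeR adjusted p of 9.37e-06, 8.33e-06 and 1.66e-05. C1qa was 34.9, 42.3, 44.5 and 52.6 CPM in CT mice on CTD, 57.9, 66.2, 77.8 and 101 CPM in CT mice on HFC, 35.0, 38.8, 30.9 and 36.0 CPM in KO mice on CTD and 88.1, 82.0, 93.5 and 86.0 CPM in KO mice on HFC, and C1qc was 32.2, 37.1, 44.2 and 54.5 CPM in CT mice on CTD, 65.7, 66.4, 78.1 and 109.8 CPM in CT mice on HFC, 34.2, 38.5, 29.0 and 36.7 CPM in KO mice on CTD and 106, 86.7, 103 and 94.6 CPM in KO mice on HFC. The 3 chains thus gave the same separation of diets in males.

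Many macrophage markers rose in males as well. Of 9 Kupffer cell markers, a list without C1q, 5 rose in CT males and 8 in KO males with 0 falls, and of 14 monocyte and macrophage markers 11 and 14 rose. Over all genes 10.6% rose in CT males and 15.5% in KO males. In males the summed CPM of the Kupffer markers was 234 to 375 in CT on CTD, 465 to 708 in CT on HFC, 206 to 253 in KO on CTD and 574 to 712 in KO on HFC. The summed C1q chains were 102 to 162, 192 to 327, 91.6 to 119 and 263 to 313 CPM in the same order. The ratio of the sums lay between 0.380 and 0.504 in all 16 males, with group means of 0.436 ± 0.0409 and 0.454 ± 0.0427 in CT and 0.468 ± 0.0299 and 0.457 ± 0.0386 in KO (SD, n = 4). The ratio overlapped between diets, while both of its terms were higher on HFC. The ratio of C1q to the summed monocyte and macrophage markers was lower on HFC, at 0.381 to 0.406 on CTD and 0.344 to 0.369 on HFC in CT males and 0.409 to 0.445 and 0.297 to 0.384 in KO males. This second ratio did not overlap between diets in either male genotype, and neither ratio was tested. Clec4f, a defining Kupffer marker, was at 62.7 CPM or more in every library. It was not called in CT males, where the diets overlapped (66.0 to 99.4 CPM on CTD, 90.5 to 133.6 on HFC). In KO males it was called as higher (log2 fold change 0.84, adjusted p = 0.000127, edgeR). The part of the macrophage markers in the rise of C1q was not tested.

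In females C1q and the Kupffer markers varied widely among animals of one group. C1qb was 43.5, 53.1 and 121 CPM in CT mice on CTD, 130.4, 137 and 106 CPM in CT mice on HFC, 45.3, 93.2 and 105 CPM in KO mice on CTD and 207, 69.3 and 166 CPM in KO mice on HFC. CT female 318 on CTD was high, KO female 413 on HFC was low, and the Kupffer sum was likewise 623 CPM in female 318, against 194 and 211 in the other CT females on CTD, and 340 CPM in female 413, against 846 and 940 in the other KO females on HFC. The C1q fold changes were 0.64, 0.78 and 0.72 in CT females and 0.75, 0.86 and 0.86 in KO females, positive as in males but not called (edgeR adjusted p between 0.284 and 0.463). The 95% interval for C1qb was -0.28 to 1.84 in CT and -0.20 to 1.92 in KO females, which holds both 0 and the rise seen in males. The ratio of C1q to Kupffer sums was 0.518 to 0.698 over the 12 females. None of the Kupffer markers was called in females, and of the 14 monocyte and macrophage markers 2 rose in CT and 3 in KO females. Over all genes 0.936% rose in CT females and 3.94% in KO females.

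**Figure D3:**
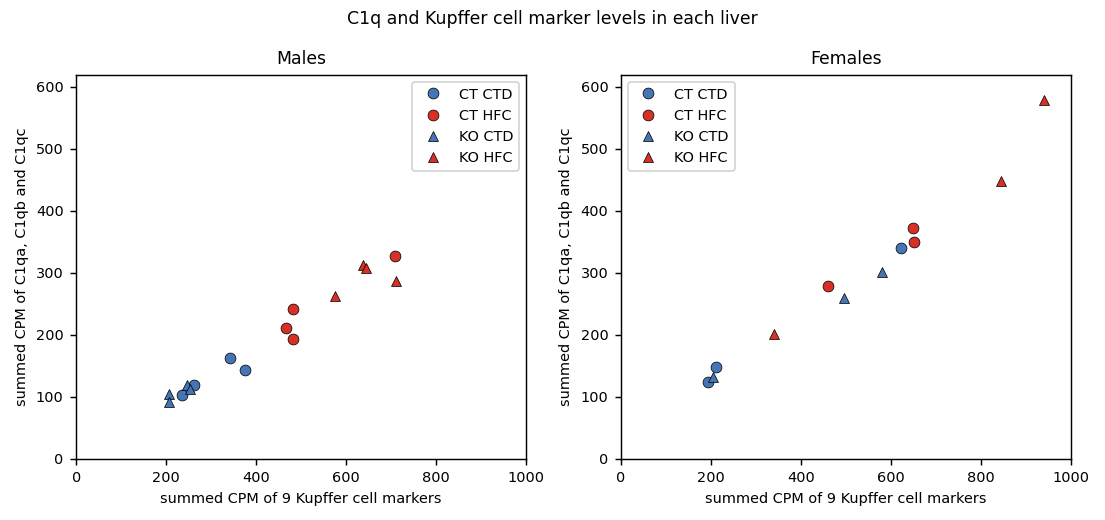
Summed CPM of C1qa, C1qb and C1qc (vertical axis) against summed CPM of 9 Kupffer cell markers (horizontal axis), with 1 point per animal, males and females in separate panels, blue CTD, red HFC, circles CT and triangles KO. The male sums separate the diets on both axes, and female 318 on CTD (623 CPM of Kupffer markers) and female 413 on HFC (340 CPM) fall among animals of the other diet.

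In the lectin pathway, the proteases Masp1 and Masp2 fell on HFC in both male genotypes. Masp2, the protease that cleaves C4 and C2 after lectin binding (chr4:148602554-148615499), was lower on HFC in both male genotypes and in KO females. In males Masp2 was 276, 275, 299 and 261 CPM in CT mice on CTD, 203, 222, 179 and 192 CPM in CT mice on HFC, 247, 257, 249 and 277 CPM in KO mice on CTD and 164, 208, 214 and 166 CPM in KO mice on HFC. No HFC male reached the lowest CTD male of its genotype (-0.48 in CT, adjusted p = 0.00222; -0.45 in KO, adjusted p = 0.00196, edgeR). In females it was 305, 262 and 239 CPM in CT mice on CTD, 192, 209.8 and 246 CPM in CT mice on HFC, 267, 285 and 261 CPM in KO mice on CTD and 170.4, 192 and 184 CPM in KO mice on HFC. The KO females did not overlap (log2 fold change -0.57, SE 0.14, adjusted p = 0.023, edgeR), though the call ended without KO female 307, 309, 317, 412 or 419 (up to 0.0814) and with only the groups compared (0.0665), and the CT females did (-0.32, adjusted p = 0.221). With library totals Masp2 stayed negative in KO males (-0.18) with an adjusted p of 0.0591. Masp1 fell in CT males (-0.49, adjusted p = 0.000486, edgeR) and KO males (-0.31, adjusted p = 0.00663), without overlap in either, the latter being -0.03 with library totals.

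Of the mannose-binding lectins, Mbl2 rose in CT males and Mbl1 fell in KO males. Mbl2 (chr19:30232942-30239687) was 252, 213, 254 and 222 CPM in CT mice on CTD, 325, 371, 297 and 371 CPM in CT mice on HFC, 302, 275, 315 and 305 CPM in KO mice on CTD and 250.2, 328, 405 and 314 CPM in KO mice on HFC. All CT males on HFC lay above all CT males on CTD (log2 fold change 0.54, SE 0.12, adjusted p = 0.00482, edgeR), whereas the KO groups overlapped (0.12, adjusted p = 0.509). Mbl1 was 109, 117, 137 and 95.1 CPM in CT mice on CTD, 101, 104, 82.9 and 92.9 CPM in CT mice on HFC, 119, 131, 123 and 90.3 CPM in KO mice on CTD and 65.4, 86.2, 90.9 and 90.6 CPM in KO mice on HFC, overlapping in both genotypes, with changes of -0.27 in CT (adjusted p = 0.163) and -0.48 in KO males (adjusted p = 0.012, edgeR; -0.21 and no call with library totals). The Mbl2 to Mbl1 ratio of CPM was 2.08 ± 0.283 on CTD and 3.59 ± 0.313 on HFC in CT males, 2.64 ± 0.533 and 3.89 ± 0.41 in KO males (SD, n = 4), 4.03 ± 0.387 and 5.39 ± 0.326 in CT females, and 4.14 ± 0.42 and 5.53 ± 1.70 in KO females (SD, n = 3). Its mean was higher on HFC in all 4, and the ratio was chosen after its values were seen and was not tested.

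C2, the protease that joins C4 in the classical and lectin C3 convertase, was 111, 126, 127 and 119 CPM in CT mice on CTD, 143, 147, 143 and 128 CPM in CT mice on HFC, 108, 91.5, 108 and 101 CPM in KO mice on CTD and 121, 145, 131 and 142 CPM in KO mice on HFC in males. The diets did not overlap in either genotype, and the rise was called in KO males (log2 fold change 0.40, SE 0.08, adjusted p = 0.00103, edgeR) but not in CT males (0.21, adjusted p = 0.0613). Its neighbour Cfb, factor B, the counterpart of C2 in the alternative pathway, begins 85 bases away and had log2 fold changes of 0.26 and 0.23 without a call (adjusted p = 0.0981 and 0.114). Both genes lie on the minus strand, so counting by strand would not tell their reads apart. How reads were assigned to genes is not given in the sources used here, so counts of such close neighbours may be mixed. C3 had a change of 0.36 in CT males (adjusted p = 0.0597, edgeR) and of 0.12 in KO males, 0.07 in CT females and -0.45 in KO females, with no call. C1ra, a C1 protease, Serping1, the C1 inhibitor, C4b and Cfi, the protease that inactivates C3b, were not called, and C1ra and C4b each have a close paralog whose reads could be shared.

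**Figure D4:**
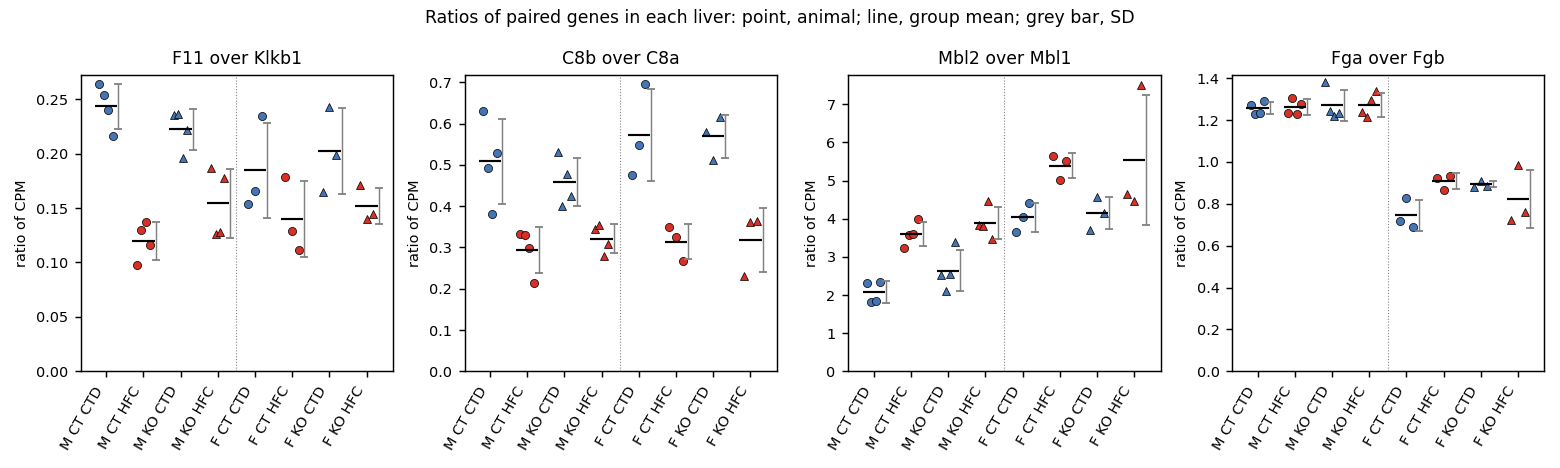
Ratio of CPM for F11 to Klkb1, C8b to C8a, Mbl2 to Mbl1 and Fga to Fgb in each animal (vertical axis) by sex, genotype and diet (blue CTD, red HFC; circles CT, triangles KO; line, mean). The first 2 ratios have lower means and the Mbl2 to Mbl1 ratio higher means on HFC in all 4 pairs of groups, and Fga to Fgb stays between 1.22 and 1.38 in males.

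Within the membrane attack complex, C8b and C8g fell on HFC in both male genotypes, while C8a, C9 and C6 were not called. C8b, the beta chain (chr4:104766317-104804548), was 520.2, 502, 457 and 360.1 CPM in CT mice on CTD, 209, 341, 159 and 167 CPM in CT mice on HFC, 419, 381, 483 and 306 CPM in KO mice on CTD and 183, 223, 213 and 222 CPM in KO mice on HFC in males. Every HFC male lay below the lowest CTD male of its genotype (log2 fold change -1.07, SE 0.21, adjusted p = 0.0025, in CT; log2 fold change -0.92, SE 0.21, adjusted p = 0.00384, in KO; edgeR). In females C8b was 156, 88.8 and 223 CPM in CT mice on CTD, 98.2, 83.1 and 57.5 CPM in CT mice on HFC, 122, 178 and 173 CPM in KO mice on CTD and 56.9, 109 and 45.4 CPM in KO mice on HFC. The KO females did not overlap and the CT females did, with log2 fold changes of -0.97 in CT and -1.16 in KO females that were not called (edgeR adjusted p = 0.189 and 0.0843). C8a, the alpha chain, whose gene lies 11130 bases from C8b on the same chromosome, overlapped between diets in males, with log2 fold changes of -0.32 and -0.39 (edgeR adjusted p = 0.288 and 0.16). The C8b to C8a ratio of CPM was 0.509 ± 0.102 on CTD and 0.294 ± 0.0552 on HFC in CT males and 0.458 ± 0.0582 and 0.321 ± 0.0349 in KO males. In females it was 0.573 ± 0.112 and 0.314 ± 0.0419 in CT and 0.57 ± 0.0522 and 0.319 ± 0.0769 in KO. The ratio was lower in every HFC animal than in every CTD animal of its sex and genotype; it too was chosen after its values were seen.

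C8g, the gamma chain, encoded on chromosome 2, was 204, 206, 200.3 and 193 CPM under CTD against 152, 168, 156 and 167 under HFC in CT males, and 207, 215, 197 and 201 against 119, 178, 174 and 141 in KO males. The diets did not overlap (-0.32, adjusted p = 0.0315; -0.42, adjusted p = 0.00411, edgeR). The CT call ended without CT male 301, 305, 313, 416 or 418 (adjusted p up to 0.0835), and both calls ended with library totals (-0.09 and -0.16). C9, which forms the ring of the pore, overlapped in males (-0.38 and -0.28) and had the opposite sign in females (0.55 and 0.61), none of them called.

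C6, the first protein of the pore to join C5b, varied widely among males. Its levels were 327, 374, 394 and 78.4 CPM in CT mice on CTD, 68.6, 261, 79.4 and 236 CPM in CT mice on HFC, 336, 288, 345 and 279 CPM in KO mice on CTD and 165, 115, 252 and 219 CPM in KO mice on HFC. The 3 lowest males, CT animals 320 on CTD and 416 and 418 on HFC, at 78.4, 68.6 and 79.4 CPM, stood well under the rest of their groups, and the diet change of -0.86 in CT males had a 95% interval of -1.97 to 0.24. The same 3 males had the 3 lowest summed levels of 11 male-biased genes that depend on growth hormone pulses, at 6315, 9583 and 10935 CPM against 11903 to 26533 CPM in the other males, and the part of this in C6 was not tested. Hsd3b5, 1 of the 11, did not give the same order, at 93.2, 6.79 and 1.64 CPM in males 320, 416 and 418. It was 86.1 CPM in CT male 313 on CTD and 3.16 CPM in KO male 414 on HFC, whose C6 was 394 and 165 CPM. Of those 11 genes 4 fell and 0 rose on HFC in each male genotype. Over all genes 9.40% fell in CT males and 13.6% in KO males. This description of C6 was made after its values were seen.

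C5ar1, carried by neutrophils and macrophages, was the lowest tested member. In males it was 0.495, 0.548, 0.936 and 2.11 CPM in CT mice on CTD, 1.51, 1.32, 1.95 and 2.12 CPM in CT mice on HFC, 0.61, 1.15, 0.731 and 0.687 CPM in KO mice on CTD and 3.01, 0.984, 1.16 and 2.24 CPM in KO mice on HFC. The diets overlapped in both genotypes, and the call in KO males (log2 fold change 1.22, SE 0.44, adjusted p = 0.0434, edgeR) ended without CT male 313, 416 or 418 or KO male 298, 304, 311, 414 or 540, with an adjusted p of up to 0.172, and with no low-count filter (0.0542). In females it was 0.25, 0.409 and 0.51 CPM in CT mice on CTD, 1.84, 1.48 and 0.8 CPM in CT mice on HFC, 0.118, 0.555 and 0.792 CPM in KO mice on CTD and 2.56, 0.853 and 1.65 CPM in KO mice on HFC. Every HFC female exceeded every CTD female of its genotype, and the changes of 1.80 (95% interval 0.53 to 3.06) and 1.77 (0.56 to 2.97) were not called (edgeR adjusted p = 0.122 and 0.0679). Over all genes 10.6% rose in CT males, 15.5% in KO males, 0.936% in CT females and 3.94% in KO females. Of the neutrophil markers, 6 of 8 tested rose in CT males, 5 of 8 in KO males, 0 of 9 in CT females and 1 of 9 in KO females. Their summed level in males was 6.29 to 14.1 CPM in CT on CTD, 20.0 to 44.7 in CT on HFC, 6.10 to 12.1 in KO on CTD and 23.7 to 29.7 in KO on HFC, and in females 9.23 to 28.9, 20.0 to 89.7, 8.91 to 23.9 and 23.3 to 68.7 CPM. Their part, and that of the macrophage markers, in the level of C5ar1 was not tested.

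Some markers of hepatocytes, the cells that make most members, also fell on HFC. Over all genes 9.40% fell in CT males, 13.6% in KO males, 1.26% in CT females and 4.65% in KO females. Of 15 hepatocyte secretory and identity genes, 3 fell in CT males, 6 in KO males, 0 in CT females and 3 in KO females, with 0 rises, and the list's median log2 change was -0.28, -0.33, -0.27 and -0.37. The median over the 40 tested members was -0.21, -0.20, -0.13 and -0.27 in the same order. The summed level of the list ranged from 81995 to 116545 CPM in CT males on CTD and from 78520 to 96743 CPM on HFC, and from 103069 to 124634 CPM and 82487 to 95642 CPM in KO males. In females the sum was 182725 to 193658 CPM on CTD and 109788 to 165648 CPM on HFC in CT mice. In KO females it was 168366 to 198180 and 116281 to 130730 CPM. Alb alone ranged from 44623 to 75281 CPM in CT males on CTD, so the sum does not weigh the 15 genes evenly. The part of this hepatocyte list in the members' falls was not tested.

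None of the 41 genes was called between KO and CT mice. On HFC, KO males differed from CT males by log2 fold changes of -0.19 to 0.30 over the 40 tested members, and on CTD by -0.38 to 0.35. With edgeR 0 members and 0 of all tested genes (0%) were called in any of the 4 genotype comparisons or the 2 interactions. At an unadjusted p under 0.05 there were 0 members on HFC, 4 on CTD and 5 in the interaction in males, and 1, 0 and 0 in females; over all genes these counts were 653, 949, 852, 311, 446 and 546. DESeq2 called 0 members, and over all genes 3, 11 and 5 in males and 0 in each female comparison. A p above the threshold does not show that the genotypes were equal, so intervals are given.

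On HFC in males the smallest p values belonged to F11 (0.22, 95% interval -0.00 to 0.43), C1qb (0.30, -0.04 to 0.65) and C1qc (0.29, -0.07 to 0.65). Their CT and KO values, given above, overlapped on that diet. On CTD in males the 3 smallest were C2 at -0.24 (-0.41 to -0.08; edgeR adjusted p = 0.685), Mbl2 at 0.35 (0.10 to 0.60; adjusted p = 0.699) and Masp1 at -0.21 (-0.37 to -0.04; adjusted p = 0.73). In these 3 genes, of 40 tested, the CT and KO males on CTD did not overlap, although none was called. The share of all genes without overlap was not computed, so no result is read from this separation. The interaction in males, the KO diet response less the CT one, was 0.42 for F11 (0.11 to 0.72; edgeR adjusted p = 0.73), 0.62 for C1qb (0.13 to 1.12; 0.754) and 0.52 for C1qa (0.08 to 0.95; 0.794). The larger C1q rise and the smaller F11 fall in KO males were thus not called as differences.

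In females on HFC, the smallest p values belonged to F7 (-0.43, 95% interval -0.79 to -0.06), C4b (-0.38, -0.79 to 0.03) and Masp2 (-0.25, -0.54 to 0.05), each with an edgeR adjusted p of 1. C4b was 1102, 1259 and 955 CPM in CT and 837, 917 and 795 CPM in KO females on HFC, without overlap. It was 1 of 2 such members among the 40, and the share over all genes was not computed. On CTD the smallest were C3 (0.39, -0.12 to 0.91), C8g (-0.32, -0.75 to 0.12) and Masp1 (0.58, -0.36 to 1.53). In the female interaction they were F7 (-0.48, -0.99 to 0.03), C4b (-0.49, -1.07 to 0.08) and Serping1 (-0.41, -0.88 to 0.07). The 95% interval for KO against CT reached past 0.5 on the log2 scale for 26 of 40 members on HFC and 25 on CTD in females, and for 12 and 12 in males.

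**Figure D5:**
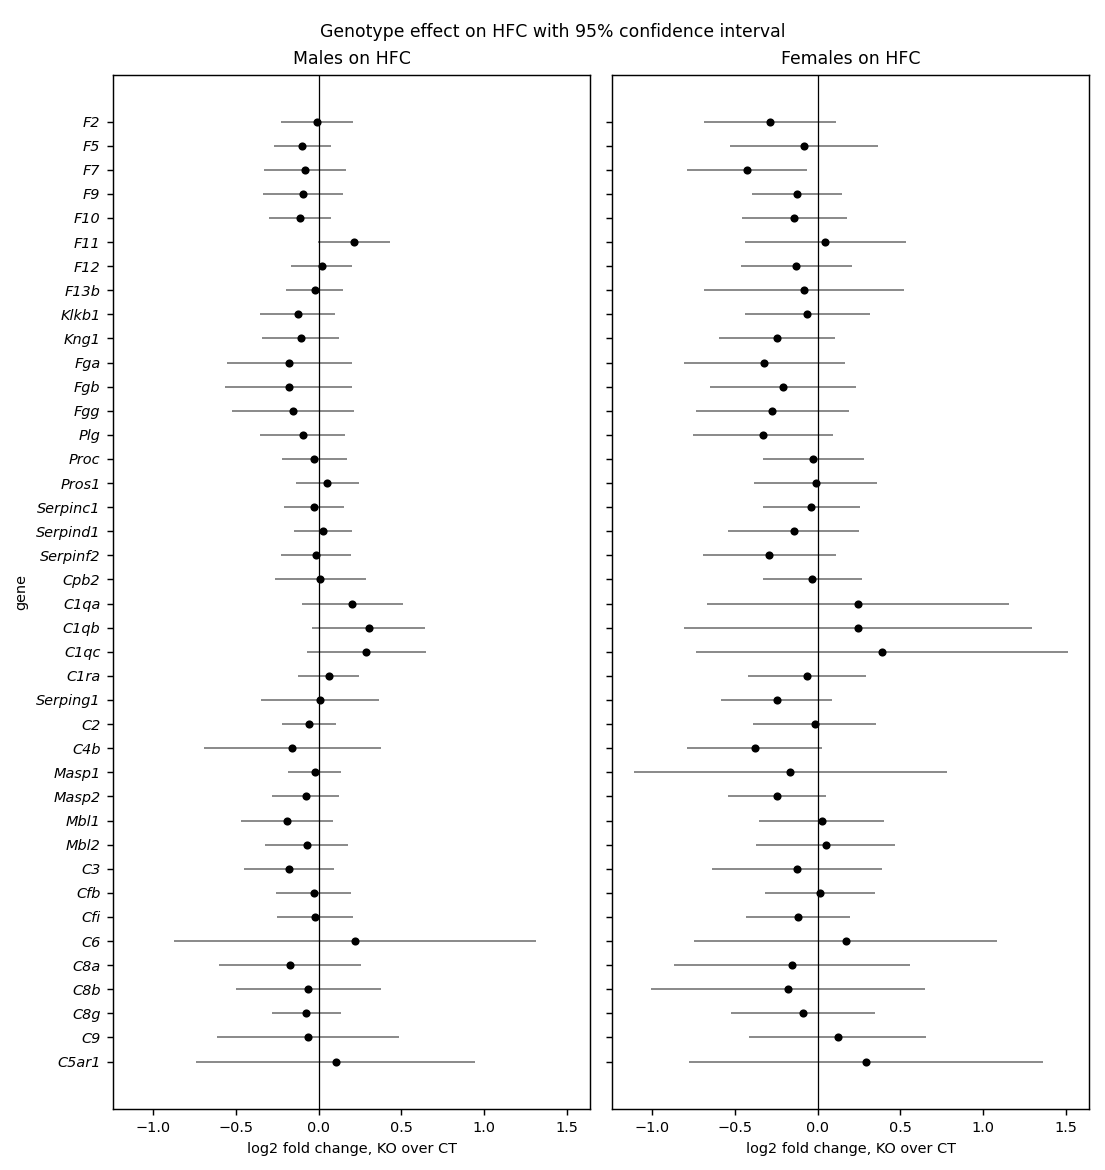
Log2 fold change of KO over CT on HFC (horizontal axis) with its 95% interval for the 40 tested members (vertical axis, ordered by role), males and females in separate panels, with a line at 0. Male values lie between -0.19 and 0.30 and none was called in either sex.

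Some other genes of the same pathways, outside the 41, passed the threshold by diet. Over all tested genes the share called was 20.0% in CT males, 29.1% in KO males, 2.19% in CT females and 8.59% in KO females. The counts below were not tested against these shares. Of 25 other coagulation and fibrinolysis genes tested, 4 rose and 4 fell in CT males, 7 rose and 5 fell in KO males, 0 were called in CT females, and 3 rose and 4 fell in KO females. Procr, the endothelial receptor of protein C, rose by 2.05 and 2.79 on the log2 scale in CT and KO males (edgeR adjusted p = 0.00036 and 5.7e-06), and Hgfac, a serine protease that activates hepatocyte growth factor, fell by 0.81 and 0.79. Of the other complement genes, 25 tested in males and 24 in females, 3 rose and 2 fell in CT males, 5 rose and 6 fell in KO males, 0 were called in CT females and 1 fell in KO females. The risers in CT males included Itgb2, a chain of complement receptors on leukocytes (1.36), and Cfp, properdin, which stabilises the alternative convertase (0.80). Of 10 endothelial markers 1 rose in CT males, 3 in KO males, 0 in CT females and 1 in KO females, of 9 stellate cell and fibroblast markers 2 rose in KO males alone, and of 4 platelet markers 1 rose in KO males and 1 in KO females. The 1 tested adipocyte marker, Adrb3, fell in KO females. In the genotype comparisons and interactions 0 genes of these lists were called.

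Set side by side over all animals, and with each table normalised on its own, F5, Masp1, C6 and C8a were higher in every male than in every female, Proc was higher in every female, and the other 36 members overlapped. The share of all genes without overlap between the sexes was not computed, so no result is read from this separation. C6 differed most, at 293 ± 146 CPM in CT males on CTD (SD, n = 4) and 19.0 ± 10.9 in CT females on CTD (SD, n = 3). C8a was 929.6 ± 225 and 271 ± 94.3 CPM, Masp1 96.7 ± 9.25 and 28.8 ± 8.54, and F5, the cofactor of factor X, 927 ± 44.6 and 429.9 ± 10.3. Proc, protein C, was 336 ± 18.2 CPM in those males and 462 ± 65.7 CPM in those females. Among members that overlapped, C9 averaged 719 CPM in those males and 204 CPM in those females, and C8b 460 and 156 CPM. Mbl2 went the other way, at 235 and 481 CPM. These are descriptions of the 2 tables, and the sexes were not tested against each other.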

How the data were processed

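Total RNA from snap-frozen whole liver was sequenced from BGI DNBSEQ libraries, per the labels' protocols. The authors deposited raw gene counts in 1 table for each sex, with 1 column per animal. The submitters' processing notes name FastQC, edgeR and the build GRCm38 (mm10). The notes name no aligner, counter, annotation or use of strand, details not given in the sources used here. The normalised tables that were also deposited were not used.

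From the deposited counts, each sex was fitted on its own with edgeR 4.0.16 (R 4.3.3): TMM factors, filterByExpr on the groups (14078 genes kept in males, 13999 in females), a mean for each of 4 groups, and robust quasi-likelihood dispersions estimated over those groups. Benjamini-Hochberg adjustment ran over all kept genes, and an adjusted p under 0.05 was called. The SE is the log2 fold change over the square root of F, an approximation, and 95% intervals use the same value. Libraries held 18741939 counts or more, so for all but C5ar1 and Cfd the spread between animals sets the precision (biological coefficient of variation 0.161 for males, 0.199 for females). Exon lengths and gene positions came from GENCODE M21 on GRCm38, counted from 1.

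The members, gene lists and tests were chosen with earlier results of these data known. In each comparison at most 6 called members with the largest change, or, failing any, at most 3 with the smallest p, got full statistics, complexes were described together, and other members were given by counts and ranges. Alternatives were RLE size factors, library totals, no low-count filter, DESeq2 1.42.0, a fit of only the groups compared and leaving out each animal. The fit was tested on simulated counts. Summaries and figures used Python 3.11.15, pandas 2.3.3 and matplotlib 3.10.9.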

Additional observations from a re-analysis of the deposited data

Results flagged for a closer look

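In the 4 male groups the animal farthest from its group was compared with its nearest neighbour for each of 40 members, 160 comparisons in all. An animal stood apart in 4 of the 160, fewer than the 1 in 20 that chance alone would give. The 4 are listed as values, and no result is read from them. Fgg was highest in CT male 313 on CTD at 5086 CPM, with the next male at 3649 CPM. Serpind1 was lowest in CT male 320 on CTD at 455 CPM, with the next at 509 CPM. Pros1 was lowest in KO male 298 on CTD at 50.4 CPM, with the next at 54.8 CPM. Cfb was lowest in KO male 414 on HFC at 1154 CPM, with the next at 1397 CPM. Groups of 3 females are too small for this comparison.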

How the results depend on the processing

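F11, C8b and the 3 C1q chains in both male genotypes, Masp1, Masp2 and Mbl2 in CT males, and C2 and Pros1 in KO males were called in the same direction under every alternative run. The number of members called in CT males (11) was 17 with DESeq2 and 8 to 13 when 1 animal was left out, lowest without CT male 305 on CTD and highest without CT male 417 on HFC. In KO males (16) it was 11 to 17 without 1 animal, lowest without KO male 304 on CTD. In CT females (0) it was 3 with library totals and 1 with only the groups compared. In KO females (4) it was 10 with DESeq2, 0 with only the groups compared, and 0 to 13 without 1 animal: 0 without KO female 309, 317, 412 or 419, 3 without 307 and 13 without 413. In the genotype comparisons and interactions the number of members called was 0 under every alternative.

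With library totals the sign turned positive for C8g (0.16), Klkb1 (0.047) and Mbl1 (0.23) in KO females, for F10 (0.045), F2 (0.054), F7 (0.062), Klkb1 (0.12) and Masp1 (0.24) in CT females, and for F10 (0.0020) and Serpinf2 (0.050) in KO males, since this scaling omits the composition factors. Over the 40 tested members and 4 diet comparisons it ended 15 calls and added 18, all of them higher on HFC: C2, C3, Cfb, Cpb2 and Pros1 in CT males, C1ra, C3, Cfb, Cpb2, F13b and Mbl2 in KO males, C5ar1, C9 and Cfb in CT females, and C5ar1, C9, Cfb and Mbl2 in KO females. DESeq2 ended 0 and added 12: C2, C3, Cfb, F10, F2 and Serpind1 in CT males, and C4b, C5ar1, C8b, F11, F2 and Serpinc1 in KO females. A fit of only the groups compared ended 10 (Plg and Serpinf2 in CT males, F10, F2, Klkb1 and Plg in KO males, and all 4 in KO females) and added 3 (C6 and Cpb2 in KO males, C5ar1 in CT females). RLE size factors ended Serpinf2 in CT males and F2 in KO males, and the absence of a low-count filter ended these and C5ar1 in KO males. Leaving out 1 animal turned the sign within these ranges: C2 in KO females -0.11 to 0.24, C8g in KO females -0.32 to 0.018, Masp1 in CT females -0.27 to 0.15, Mbl2 in CT females -0.079 to 0.22, Mbl2 in KO males -0.0096 to 0.22, and Pros1 in KO females -0.090 to 0.10. Over all genes the calls with TMM, 2820 in CT males, 307 in CT females and 1202 in KO females, became 4535, 1827 and 3737 with library totals; in CT males they were 1753 without CT male 418, in CT females 905 with DESeq2, 804 with only the groups compared and 72 to 756 without 1 animal, and in KO females 1834, 435 and 566 to 2671. Without KO female 413, 9 genes were called for KO against CT on HFC and 1 in the interaction, none of them a member. No paired analysis was possible because each animal has its own number and no number is shared between groups.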
